A study of Mus musculus with 18 samples.

Results

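The contrast described here is the effect of losing Raptor minus the effect of losing Tsc2 in granulocyte-monocyte progenitors (GMPs), which in bone marrow give rise to neutrophils and to monocytes. It was formed from 12 of the 18 mouse RNA-seq samples of the study, in 4 groups of 3 libraries given by the sample titles, namely Raptor KO with its control Raptor fl/fl, and Tsc2 KO with its control Tsc2 fl/fl. The fl/fl notation stands for loxP-flanked alleles. The labels name no Cre driver, strain or age and leave unsaid whether the replicates came from different mice, so the p values below measure the spread between these libraries. Each sample held 10000 cells, sorted for c-kit and FcγRII/III, with low CD34 and Ly6C and without Sca-1, CD127 or CD135, and was sequenced by SmartSeq2, a low-input method. All 6 libraries titled Tsc2 have Raptor in their genotype field, and the titles were followed. For each gene the Raptor effect (Raptor KO minus Raptor fl/fl) and the Tsc2 effect (Tsc2 KO minus Tsc2 fl/fl) were taken on log2(value + 1), and the Tsc2 effect was subtracted from the Raptor effect. Of 22787 genes in the table, 13237 reached a value of 1 in at least 3 of the 12 libraries and were tested. A positive difference, "higher" below, means that the Raptor effect lay above the Tsc2 effect, and a negative one, "lower", that it lay below. A gene is "called" at a limma adjusted p under 0.05.

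Raptor, encoded by Rptor, is the subunit that defines mTORC1, a kinase complex that couples amino acid and growth factor supply to protein, lipid and nucleotide synthesis. Tsc2 is the catalytic part of the complex that turns off the small GTPase Rheb and thereby restrains mTORC1. Loss of Raptor and loss of Tsc2 therefore act on opposite sides of the same kinase, whose activity was not measured here, and a gene that follows it would move in opposite directions in the 2 knockouts. In marrow progenitors mTORC1 is known for its part in growth, proliferation and lineage output.

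Libraries held 2.48 to 3.52 M fragments and between 11854 and 12585 detected genes (value of at least 1). A value is a gene's fragment number over the library's size factor (signal units). Tsc2 stood at 269, 235 and 241 in Tsc2 fl/fl and at 103, 99 and 83 in Tsc2 KO, with no overlap. Of all genes tested, 26.4% had no overlap between knockout and control in the Raptor line, and 27.8% in the Tsc2 line. Rptor stood at 88, 78.6 and 86.8 in Raptor fl/fl and at 61.5, 58.7 and 69.5 in Raptor KO, lower in each knockout library but not called (Raptor effect -0.41, limma adjusted p = 0.377). The table has 1 value per gene and the labels do not give the deleted exons, so this level does not check the deletion. The sum of 11 GMP markers lay at 72132 to 83054 in Raptor fl/fl, 65415 to 68249 in Raptor KO, 37710 to 84011 in Tsc2 fl/fl and 8901 to 41398 in Tsc2 KO. Mpo was its largest part, and not all markers followed it. Kit stood at 830, 778 and 757 in Raptor fl/fl and at 1088, 1284 and 1253 in Raptor KO. In the Tsc2 line Kit stood at 1012, 884 and 1052 (controls) and 1056, 1015 and 1281 (knockouts). Fcgr2b and Cebpa were also higher in each Raptor KO library than in the controls. Fcgr3 was lower in each, at 223, 247 and 239 against 309, 279 and 309 in Raptor fl/fl. Cd34 was lower as well, at 831, 894 and 878 against 1182, 1050 and 1044. Elane, Prtn3, Ctsg, Ms4a3 and Cebpe overlapped in the Raptor line. The Tsc2 fl/fl library with the lowest sum, replicate 2, was also the highest of its group for erythroid markers, at 1141 against 283 and 545. It and Tsc2 KO replicate 2 were the libraries with Y-linked transcripts (Ddx3y at 130 and 113, and 0 elsewhere). Xist, the RNA of the inactive X chromosome, stood at 1.69 and 1.38 in these 2 and at 1239 to 8340 in all others. In the Tsc2 line the libraries numbered 2 thus came from other mice than replicates 1 and 3. B cell markers lay at 382 to 585 and 142 to 327 in the 2 control groups and at 12.6 to 37.5 and 0.741 to 11.0 in Raptor KO and Tsc2 KO. In these bulk samples, fewer cells of a type and less RNA per cell cannot be told apart.

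**Figure D1:**
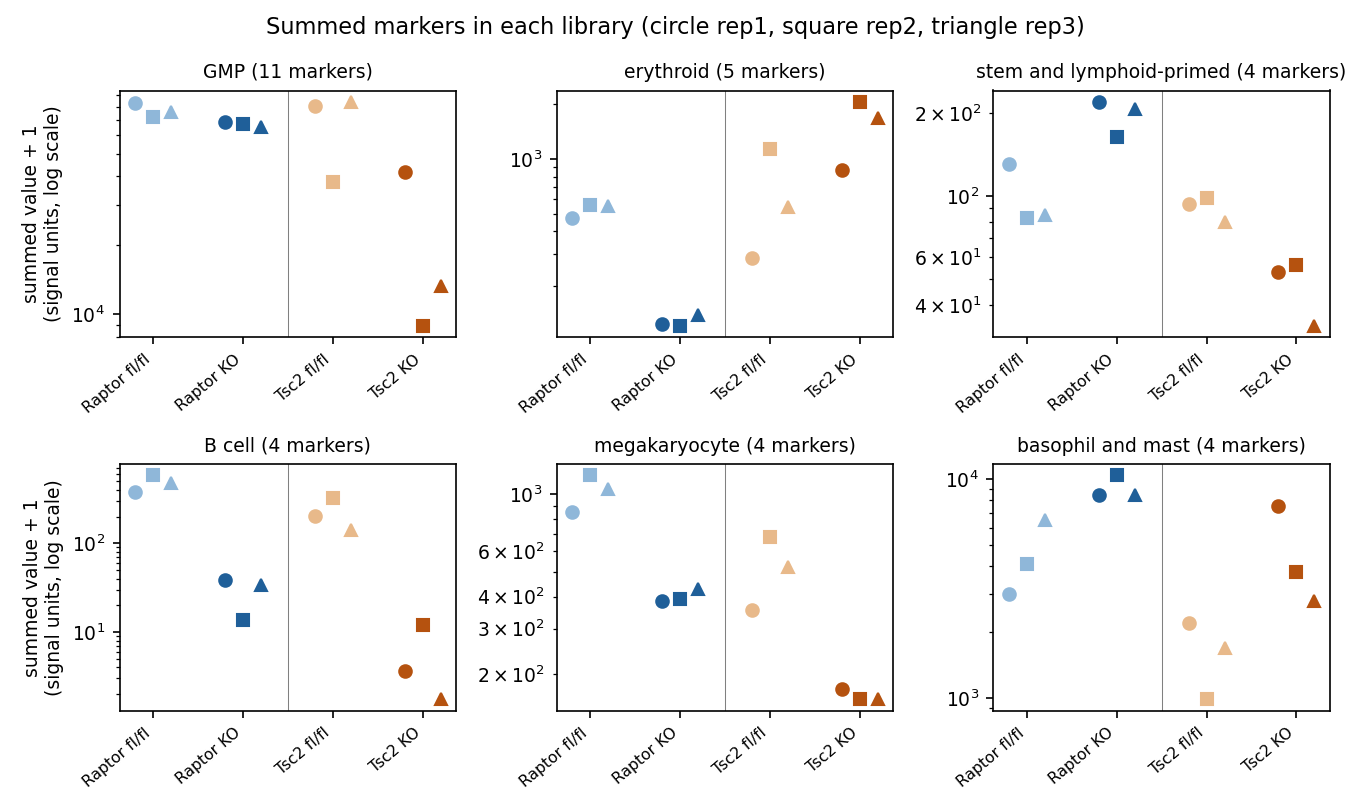
Summed values of 6 marker lists in each of the 12 libraries, in signal units plus 1 on log axes. The GMP sum is lower in all Tsc2 KO libraries than in Tsc2 fl/fl replicates 1 and 3. The erythroid sum differs in opposite directions between knockout and control in the 2 lines, apart from Tsc2 fl/fl replicate 2, which overlaps Tsc2 KO.

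The 2 knockout effects differed for 1646 of 13237 genes, 12.4% of those tested, with 793 higher (5.99%) and 853 lower (6.44%). At an unadjusted p under 0.05 there were 3621, and 1193 of the called differences were at least 2-fold. In 1547 of the 1646 the point estimates of both effects had opposite signs. Over all genes tested, the median difference was 0.08, and the Raptor and Tsc2 effects correlated across genes at r = -0.021 (Spearman rho -0.133, n = 13237 genes, which share libraries and size factors). A large difference favours opposite signs by construction, so the count of 1547 describes the called genes and tests nothing.

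Each called difference was sorted by which of the 2 effects passed its own test. Raptor KO differed from its control in 522 genes (3.94%), 202 upward (1.53%) and 320 downward (2.42%), and Tsc2 KO in 696 upward (5.26%) and 942 downward (7.12%). Of the 1646 differences, 828 rested on a called Tsc2 effect alone and 261 on a called Raptor effect alone. In 475 neither effect passed its own test. Both passed with opposite signs in 81 genes (0.612% of all tested), of which 19 rose in Raptor KO and fell in Tsc2 KO (0.144%) and 62 did the reverse (0.468%). Of the called differences, the single gene that passed in both lines with the same sign was Ctsb, the lysosomal protease cathepsin B, with a Raptor effect of 0.53 and a Tsc2 effect of 1.40. Its difference of -0.87 ± 0.18 lost its call when the expression trend of the variances was dropped (limma adjusted p = 0.0515). The number of called differences was 1085 when Raptor fl/fl replicate 1 was left out, 947 and 1004 without Raptor KO replicates 2 and 3, 1046 without Tsc2 fl/fl replicate 1, and 2519, 897 and 931 without Tsc2 KO replicates 1, 2 and 3. It was 714 when the expression trend and robust estimation of the variances were dropped, a setting that lowered most list counts given below by more than 1.5 times and is named beside them as the fit without the trend. The Raptor calls numbered 194, 228 and 253 without Raptor fl/fl replicates 1, 2 and 3, 146 and 147 without Raptor KO replicates 2 and 3, and 834 without Tsc2 KO replicate 1, which enters the shared estimate of the variance. The Tsc2 calls numbered 705 and 860 without Tsc2 fl/fl replicates 1 and 3, and 2498, 662 and 601 without Tsc2 KO replicates 1, 2 and 3. The class of 81 ranged from 27 to 215 over the 12 omissions: it was 215 and 170 without Tsc2 KO replicate 1 and Tsc2 fl/fl replicate 2, and 27 to 47 without Raptor fl/fl replicates 1, 2 or 3, Raptor KO replicates 2 or 3, Tsc2 fl/fl replicate 3 and Tsc2 KO replicates 2 or 3.

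**Figure D2:**
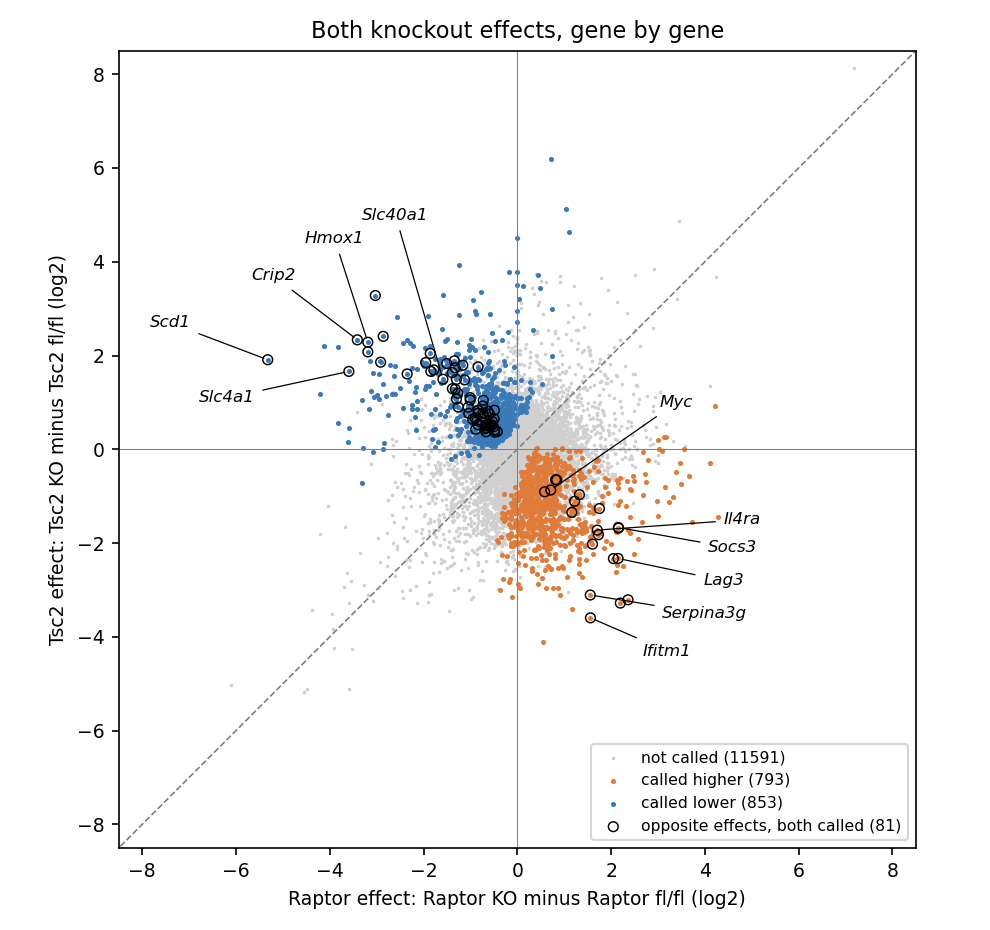
Raptor effect (horizontal, log2) against Tsc2 effect (vertical, log2) for the 13237 genes tested, with called differences in colour and the 81 genes called with opposite signs in both lines circled. Vertical distance from the dashed diagonal, where both effects are equal, is the size of the difference, and the circled genes lie to the upper left and the lower right.

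Among genes that rose in Raptor KO and fell in Tsc2 KO, Ifitm1 had the largest difference of those with a group mean of 50 or more. Ifitm1, a membrane protein of the interferon-inducible family, stood at 402, 398 and 378 in Raptor fl/fl and at 1499, 963 and 1079 in Raptor KO. In the Tsc2 line it went from 342, 228 and 355 to 25.2, 26.8 and 20.7. The Tsc2 controls lay slightly below the Raptor controls, and the knockouts lay far outside both, on either side. The difference was 5.16 ± 0.27 (SE, limma adjusted p = 9.7e-10). Il4ra, the receptor chain shared by interleukins 4 and 13, rose from 70.7, 73.2 and 115 to 249.7, 331 and 257 and fell from 106, 64.3 and 63 to 31.8, 15.8 and 21.5. Its Raptor and Tsc2 effects were near equal in size, at 1.71 and -1.72, giving a difference of 3.43 ± 0.40 (limma adjusted p = 1.1e-04). Socs3, a feedback inhibitor of cytokine signalling, went from 12.3, 13.2 and 11.4 to 50.2, 59.5 and 65.8 in the Raptor line and from 13.9, 29.6 and 19.8 to 5.3, 7.57 and 4.44 in the Tsc2 line. No library of a knockout overlapped its control, and the difference was 3.83 ± 0.55 (limma adjusted p = 6.3e-04).

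The transcription factor Myc belonged to the same class. It stood at 727, 851 and 714 in Raptor fl/fl and at 1196, 1298 and 1256 in Raptor KO, and went from 849, 732 and 775 to 516, 376 and 406 in the Tsc2 line. Its difference was 1.58 ± 0.18 (limma adjusted p = 1.1e-04). Serpina3g, a serine protease inhibitor, rose from 138, 188 and 126 to 508, 427 and 386 and fell from 117, 136 and 79.9 to 25.9, 8.94 and 6.67, a difference of 4.66 ± 0.51 (limma adjusted p = 2.3e-04). Lag3, an inhibitory receptor of lymphocytes, had a difference of 4.48 ± 0.79 at lower levels, from 10.8, 21.8 and 12.2 to 52.4, 60.2 and 94 and from 36.4, 7.61 and 18.8 to 3.98, 4.81 and 0.741. The remaining named members were Maged1 (3.63), the nuclear RNA Firre (3.55), the cathepsin Ctsf (3.02), the cytokine receptor Flt3 (2.33) and the RSK2 kinase gene Rps6ka3 (2.29). All of these kept their call under each of the 24 alternative settings tried.

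Of the 62 genes that moved the other way, Scd1 had the largest difference of all genes called with a group mean of 50 or more. Scd1, the desaturase that makes monounsaturated fatty acids, stood at 40.4, 47.5 and 53.6 in Raptor fl/fl and at 0.707, 0 and 0 in Raptor KO, where 2 of 3 libraries were listed at 0. In the Tsc2 line it went from 33.8, 49.9 and 10.3 to 88.8, 144 and 80.7. The difference was -7.23 ± 0.69 (limma adjusted p = 1.1e-05), which on log2(value + 1) understates a change that ends near 0. Slc40a1, the iron exporter ferroportin, fell from 105, 128 and 110.4 to 40.3, 34.9 and 36.6 and rose from 84.1, 135 and 113 to 269.8, 338 and 320.0. The Raptor and Tsc2 effects were close to equal in size, and the difference was -3.08 ± 0.28 (limma adjusted p = 1.0e-05).

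Crip2, a LIM domain protein, fell from 26, 50.6 and 63.3 to 4.24, 1.49 and 4.7 and rose from 39, 181 and 64.9 to 237, 508 and 507. Slc46a3, a lysosomal transporter, fell from 28.1, 16.3 and 16.2 to 3.54, 0.743 and 1.88 and rose from 16.5, 61.8 and 14.1 to 86.2, 157 and 179. For both genes Tsc2 fl/fl replicate 2 was the highest control, yet below each Tsc2 KO library. The differences were -5.75 ± 0.76 and -5.27 ± 0.73 (limma adjusted p = 9.0e-04 and 5.3e-04). Hmox1, haem oxygenase, the enzyme that breaks down haem, fell from 34.6, 48.3 and 11.4 to 2.12, 8.18 and 0 and rose from 12.1, 3.38 and 4.7 to 23.9, 29.6 and 48.9, with a difference of -5.47 ± 1.01 (limma adjusted p = 0.00326). Hpn, Sh2d4a and Pdzk1ip1 had differences of -3.96, -4.77 and -3.9, and also fell in Raptor KO and rose in Tsc2 KO. For Hpn and Sh2d4a, Tsc2 fl/fl replicate 2 (181 and 131) lay above the lowest Tsc2 KO library (174 and 96.8).

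**Figure D3:**
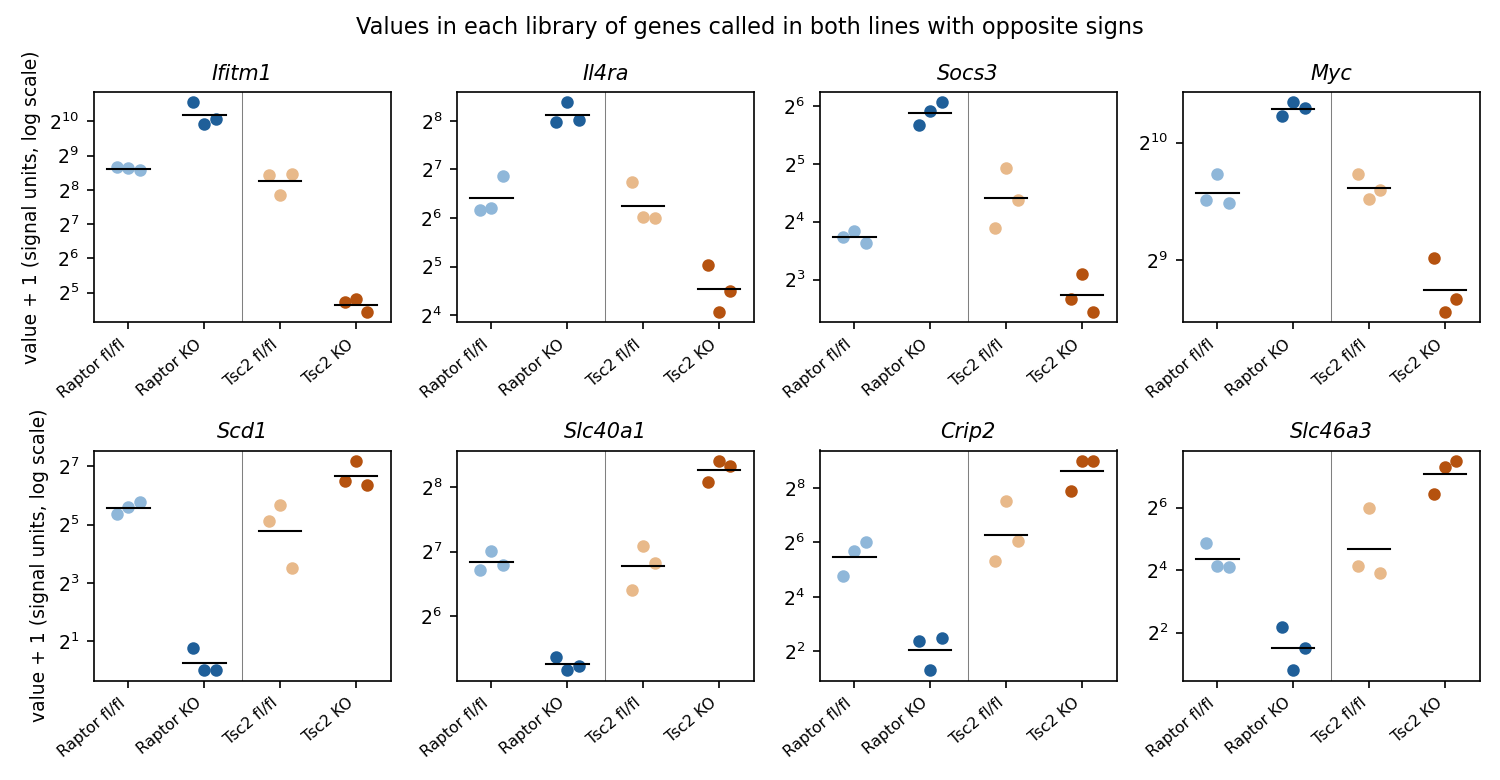
Values plus 1 (signal units, log axes) in each library for 8 genes whose effects were called in both lines with opposite signs; bars are means on the log scale, n = 3. In the upper row Raptor KO lies above and Tsc2 KO below its control, and in the lower row the reverse.

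Of 40 tested genes of the TSC and mTORC1 pathway itself, 1 was higher (2.5%, against 5.99% of all genes) and 2 were lower (5%, against 6.44%), shares near those of all genes, with a median difference of -0.18 against 0.08 over all genes. The higher one was Tsc2 itself (1.11). Sesn1, which passes amino acid shortage to mTORC1, fell in Raptor KO from 137, 155 and 133 to 39.6, 59.5 and 74.2 and stood at 118, 147 and 113 (controls) and 111, 126 and 104 (knockouts) in the Tsc2 line. Its difference of -1.18 ± 0.31 (limma adjusted p = 0.0199) lost its call without Tsc2 KO replicate 2 and without the trend, with a highest limma adjusted p of 0.0579. Eif4ebp1, the translation repressor that mTORC1 phosphorylates, rose in Tsc2 KO (0.96) with a difference of -0.88 ± 0.27, a call lost in 12 of 24 settings (limma adjusted p of up to 0.141), among them the omission of Raptor fl/fl replicates 1 or 3, Raptor KO replicates 2 or 3, Tsc2 fl/fl replicates 1 or 3, and Tsc2 KO replicates 2 or 3.

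Amino acid synthesis and tRNA charging, a programme known to be driven by the factor ATF4, had more lower than higher members. Of 39 tested genes 13 were called lower (33.3%, against 6.44% of all genes) and 2 higher, and the median difference was -0.57, from a median Raptor effect of -0.16 and a median Tsc2 effect of 0.58. Asns, asparagine synthetase, stood at 219, 195 and 205 in Raptor fl/fl and 147, 118 and 132 in Raptor KO, and went from 204, 455 and 265 to 676, 1217 and 1101 in the Tsc2 line. Only the Tsc2 effect passed its own test (1.73, limma adjusted p = 8.4e-04), and the difference was -2.37 ± 0.36 (limma adjusted p = 0.00135). Mthfd2, the mitochondrial enzyme of the folate cycle, fell from 163, 119.9 and 72.2 to 40.3, 43.1 and 52.6 and rose from 112, 122 and 96.9 to 211, 225 and 264, with a difference of -2.37 ± 0.34 (limma adjusted p = 6.3e-04). Ddit3, the stress factor CHOP, had a difference of -1.72 ± 0.33 (limma adjusted p = 0.00369), with all Tsc2 KO libraries (133, 183 and 140.0) above the controls (111, 65.1 and 68.7). The tRNA synthetase genes among the called members were Aars, Cars, Yars, Mars, Hars, Sars, Gars and Nars, named after their values were seen, with differences from -1.55 to -0.54. The count of 13 was 6 in the fit without the trend.

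Promoters of these genes were read from RefSeq (build GRCm38.p6), from 250 bases before to 50 bases after the start of the gene, for the 9 called lower members with an entry. The amino acid response element, searched as TGATGNAA on both strands, was present in 4 of the 9 (44.4%), against 4.06% of all 27025 promoters. Asns and Gars are shown because they are 2 of the 4, with Aars and Yars. Capitals mark the match, which overlaps none of the 5 other motifs searched. Of those, the E-box letters CACGTG were present in 2 of the 9 (22.2%, against 7.24% of all promoters). CCAAT was present in 5 (55.6%, against 37.9%) and the GATA letters AGATAA in 1 (11.1%, against 11.4%). TTGGCGC and TTTGAA were present in 0. A match is a description of the letters, and factor binding was not measured.
Asns, chr6:7693160-7693459, minus strand: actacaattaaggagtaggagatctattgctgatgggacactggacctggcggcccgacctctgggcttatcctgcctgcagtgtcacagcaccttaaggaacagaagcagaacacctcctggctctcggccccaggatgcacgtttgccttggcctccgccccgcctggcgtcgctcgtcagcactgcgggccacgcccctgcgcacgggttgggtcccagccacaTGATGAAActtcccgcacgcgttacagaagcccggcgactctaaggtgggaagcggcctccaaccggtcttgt
Gars, chr6:55037751-55038050, plus strand: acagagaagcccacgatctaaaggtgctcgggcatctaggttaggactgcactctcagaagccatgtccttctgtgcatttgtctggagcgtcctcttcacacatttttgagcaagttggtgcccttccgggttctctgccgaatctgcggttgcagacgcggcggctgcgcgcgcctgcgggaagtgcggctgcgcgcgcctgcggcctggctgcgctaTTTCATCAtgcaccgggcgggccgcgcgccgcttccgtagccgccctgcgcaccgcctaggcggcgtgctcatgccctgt

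Lipid synthesis genes were lower in part. Of 27 genes of sterol synthesis and uptake, 8 were lower (29.6%) and 0 higher, with a median difference of -0.88, and 26 of the 27 point estimates were below 0. Fdps, farnesyl diphosphate synthase, named after its values were seen, fell from 336, 231 and 243 to 180.4, 147 and 163 and stood at 257, 238 and 258 (controls) and 392, 353 and 307 (knockouts) in the Tsc2 line, with a difference of -1.18 ± 0.23 (limma adjusted p = 0.00384). Msmo1, a sterol oxidase, rose in Tsc2 KO (Tsc2 effect 1.21) with a difference of -1.92 ± 0.50, and lost its call without Raptor KO replicate 2, without both libraries with Y-linked transcripts and without the expression trend (limma adjusted p of up to 0.0631). Of 24 genes of fatty acid synthesis and desaturation, 6 were lower and 1 higher. Beside Scd1, the desaturase Fads2 stood at 51.9, 67.7 and 50.3 (controls) and 22.6, 14.9 and 35.7 (knockouts) in the Raptor line and rose from 44.2, 137 and 79 to 145, 219 and 172 in the Tsc2 line, although Tsc2 fl/fl replicate 2 lay close to the lowest knockout library. Its difference was -2.41 ± 0.51 (limma adjusted p = 0.00667). Srebf1, the gene of the lipid regulator SREBP1, also named after its values were seen, had a difference of -0.92 ± 0.29 (limma adjusted p = 0.0438). The sterol count was 3 without the trend, and 4 or 5 without Raptor fl/fl replicates 1 or 3, Raptor KO replicates 2 or 3, Tsc2 fl/fl replicates 1 or 3, or Tsc2 KO replicate 2. The fatty acid count was 3 without Raptor KO replicate 1, and 2 without the trend, or with Tsc2 fl/fl replicate 1 or Tsc2 KO replicates 2 or 3 left out.

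Proteasome subunits, which form the protease that degrades ubiquitin-tagged proteins, had the highest share of called members among the 39 lists. Of 31 tested, 23 were lower (74.2%) and 0 higher, and all 31 point estimates were below 0. The shift was small, with a median difference of -0.71 built from a median Raptor effect of -0.40 and a median Tsc2 effect of 0.30. Psmd13, a lid subunit, fell from 517, 521 and 454 to 292, 322 and 329 and rose from 415, 409 and 451 to 546, 611 and 596, with no overlap in either line (difference -1.12 ± 0.17, limma adjusted p = 8.8e-04). Psmb7, a catalytic subunit, fell from 409.8, 385 and 364 to 278, 221 and 258 in the Raptor line and stood at 336, 346 and 354 (controls) and 414, 424 and 450.4 (knockouts) in the Tsc2 line (difference -0.93 ± 0.18, limma adjusted p = 0.00386). Psmc5, an ATPase subunit, had a difference of -0.93 ± 0.18 (limma adjusted p = 0.00448). The count was 13 under quantile normalization and 5 in the fit without the trend.

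Nuclear genes of oxidative phosphorylation, which encode the respiratory chain and ATP synthase, were lower in 37 of 76 (48.7%) and higher in 0, with 75 of 76 point estimates below 0 and a median difference of -0.67. On their own, 19 of the 76 fell in Raptor KO, and 9 rose in Tsc2 KO. Uqcrq of complex III fell from 561, 367 and 390.3 to 289, 190.3 and 207 and stood at 388, 288 and 355 (controls) and 412, 365 and 389 (knockouts) in the Tsc2 line, with a difference of -1.12 ± 0.25 (limma adjusted p = 0.00885). Ndufa11 of complex I fell from 312, 280.3 and 243 to 177, 141 and 124 and stood at 183, 190.4 and 217 (controls) and 257, 224 and 181 (knockouts), with a difference of -1.08 ± 0.25 (limma adjusted p = 0.0097). Ndufb9 and Atp5o, named after their values were seen, were the members called in both lines with opposite signs, with differences of -1.06 ± 0.20 and -0.90 ± 0.18. Mitochondrial ribosomal proteins were lower in 15 of 76 (19.7%) and higher in 0, with Mrps36 at -1.51 ± 0.28 (limma adjusted p = 0.00281). The respiratory chain count was 16 when Raptor fl/fl replicate 1 was left out, 15 and 18 without Raptor KO replicates 2 and 3, 24 without Tsc2 KO replicate 2, 21 under quantile normalization and 2 in the fit without the trend. The mitochondrial ribosome count was 3 without the trend, and 6 or 8 without Raptor fl/fl replicate 1, Raptor KO replicates 2 or 3, or Tsc2 KO replicates 2 or 3.

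Taldo1, transaldolase of the pentose phosphate pathway, fell from 1559.9, 1488 and 1589 to 950.1, 918 and 993 and rose from 1349.9, 1299 and 1486 to 1688, 1959 and 1947. Its difference was -1.13 ± 0.15 (limma adjusted p = 2.7e-04). Of the 31 genes of its list, glycolysis and the pentose phosphate pathway, 2 were lower (6.45%), close to the 6.44% of all genes. Nucleotide synthesis had 6 of 26 lower and 1 higher. Rrm2, the regulated subunit of ribonucleotide reductase, fell from 827, 785 and 737 to 484, 357 and 459 and rose from 642, 1069 and 592 to 1001, 1336 and 1071, where Tsc2 fl/fl replicate 2 overlapped the knockouts (difference -1.47 ± 0.27, limma adjusted p = 0.00322). Its partner Rrm1 had a difference of -1.07 ± 0.20 (limma adjusted p = 0.00281). The nucleotide count was 2 in the fit without the trend.

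Many genes of DNA replication and mitosis were lower and none of either list was higher. In DNA replication and S phase 16 of 42 were lower (38.1%, median difference -0.55), and in mitosis and chromosome segregation 18 of 40 (45%, median -0.70). In S phase 8 members fell in Raptor KO and 7 rose in Tsc2 KO, and in mitosis 3 fell in Raptor KO and 15 rose in Tsc2 KO. E2f2, an E2F transcription factor, fell from 39, 41.3 and 42.2 to 9.2, 14.1 and 19.7 and rose from 17.3, 59.2 and 25.4 to 98.1, 118 and 109.6 (difference -3.33 ± 0.53, limma adjusted p = 0.00104). Rfc4, a subunit of the clamp loader, fell from 409.8, 402 and 343 to 242, 181 and 262 and rose from 312, 379 and 306 to 454, 519.9 and 513 (difference -1.35 ± 0.22, limma adjusted p = 0.00105). Cenpa, the histone H3 of centromeres, fell from 445, 406 and 468 to 319.8, 239 and 257 and rose from 339.9, 569 and 504 to 625, 736 and 856 (difference -1.37 ± 0.25, limma adjusted p = 0.00264). No Raptor KO library of these 3 genes reached a Raptor fl/fl library, and each Tsc2 KO library lay above each Tsc2 fl/fl library. Such separation, in either direction, was found in 26.4% of all genes tested in the Raptor line and 27.8% in the Tsc2 line. Nusap1, a spindle protein, stood at 312, 319 and 332 (controls) and 239.8, 244 and 212 (knockouts) in the Raptor line and rose from 186, 348 and 223 to 372, 451 and 461 (difference -1.27 ± 0.26, limma adjusted p = 0.00483). The S phase count was 10 without Tsc2 KO replicate 2 or 3, and the S phase and mitosis counts were 8 and 7 in the fit without the trend.

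Promoters of 15 of the 18 called mitosis genes had an entry in RefSeq (GRCm38.p6). The cell cycle homology element, searched as TTTGAA on both strands, was present in 8 of 15 (53.3%), against 18.1% of all promoters. The CCAAT box (CCAAT on both strands) was present in 11 of 15 (73.3%), against 37.9%. Of the 12 entries for called S phase genes, 2 held TTTGAA (16.7%) and 8 held CCAAT (66.7%). The E2F letters TTGGCGC were present in 3 of these 12 (25.0%) and in 2 of the 15 mitosis entries (13.3%), against 2.54% of all promoters. Cenpa and Ube2c, the ubiquitin-conjugating enzyme of the anaphase-promoting complex, stand for the 8, and capitals mark TTTGAA or its complement, which overlaps no other motif searched there.
Cenpa, chr5:30666636-30666935, plus strand: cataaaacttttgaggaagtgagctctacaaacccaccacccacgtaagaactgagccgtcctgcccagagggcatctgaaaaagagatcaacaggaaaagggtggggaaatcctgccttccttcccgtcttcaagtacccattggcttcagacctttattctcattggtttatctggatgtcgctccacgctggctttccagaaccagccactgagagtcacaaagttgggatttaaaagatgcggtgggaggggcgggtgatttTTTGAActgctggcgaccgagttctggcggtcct
Ube2c, chr2:164769679-164769978, plus strand: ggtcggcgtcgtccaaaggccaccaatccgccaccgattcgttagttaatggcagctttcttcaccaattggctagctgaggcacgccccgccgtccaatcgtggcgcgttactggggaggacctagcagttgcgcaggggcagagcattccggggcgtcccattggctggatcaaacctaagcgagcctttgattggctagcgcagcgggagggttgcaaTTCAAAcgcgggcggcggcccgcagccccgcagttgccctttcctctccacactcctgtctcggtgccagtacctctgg

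Erythroid and haem genes had the largest median difference of the 39 lists, at -2.45. Of 46 tested, 29 were lower (63%) and 2 higher, 44 point estimates were below 0, and the median effects were -1.01 for Raptor and 1.28 for Tsc2. Among the members, 11 fell in Raptor KO and 19 rose in Tsc2 KO. Slc4a1, the anion exchanger band 3, fell from 93.1, 156 and 139.6 to 9.9, 6.69 and 13.2 and rose from 36.4, 52.5 and 27.3 to 48.4, 302 and 119, with overlap in the Tsc2 line (difference -5.25 ± 0.71, limma adjusted p = 9.0e-04). Trim10, an erythroid RING protein, fell from 39.7, 40.5 and 45.4 to 0.707, 1.49 and 1.88 and stood at 41.6, 84.6 and 17.9 (controls) and 48.4, 142 and 109.6 (knockouts) in the Tsc2 line, also with overlap (difference -5.38 ± 0.69, limma adjusted p = 2.6e-04). For Slc4a1 and Trim10 the Raptor KO libraries lay far below their controls, while Tsc2 fl/fl replicate 2 stood above the other Tsc2 controls.

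The next members were named after their values were seen. The erythroid regulators Klf1, Gata1 and Epor had differences of -2.98 ± 0.72, -1.69 ± 0.46 and -2.44 ± 0.64 (limma adjusted p = 0.0299, 0.0344 and 0.0308). Haem synthesis enzymes shared the direction: Fech at -2.30 ± 0.43, Urod at -1.77 ± 0.28, Alad at -1.67 ± 0.38 and the erythroid Alas2 at -2.97 ± 0.56. Alas2 fell in Raptor KO, from 45.5, 47.5 and 52.7 to 7.07, 4.46 and 6.58, and its values were 15.6, 27.1 and 46.1 in the Tsc2 controls and 23.2, 29.6 and 38.5 in the knockouts. The housekeeping form Alas1 went the other way (1.22 ± 0.37), as did the mitochondrial iron importer Slc25a37 (1.09 ± 0.25). Hbb-b1 shares fragments with near-identical globin genes in the authors' counting, so its difference of -3.77 is uncertain. Erythroid markers, 5 genes that include Klf1, Hbb-b1, Hba-a1 and Alas2, summed to 470 to 555 in Raptor fl/fl, 119 to 136 in Raptor KO, 283 to 1141 in Tsc2 fl/fl and 872 to 2070 in Tsc2 KO. The part of erythroid cells within the sort in these differences was not tested. The count of 29 was 34 without Tsc2 fl/fl replicate 2, 34 without both libraries with Y-linked transcripts, and between 21 and 36 over all 24 settings.

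**Figure D4:**
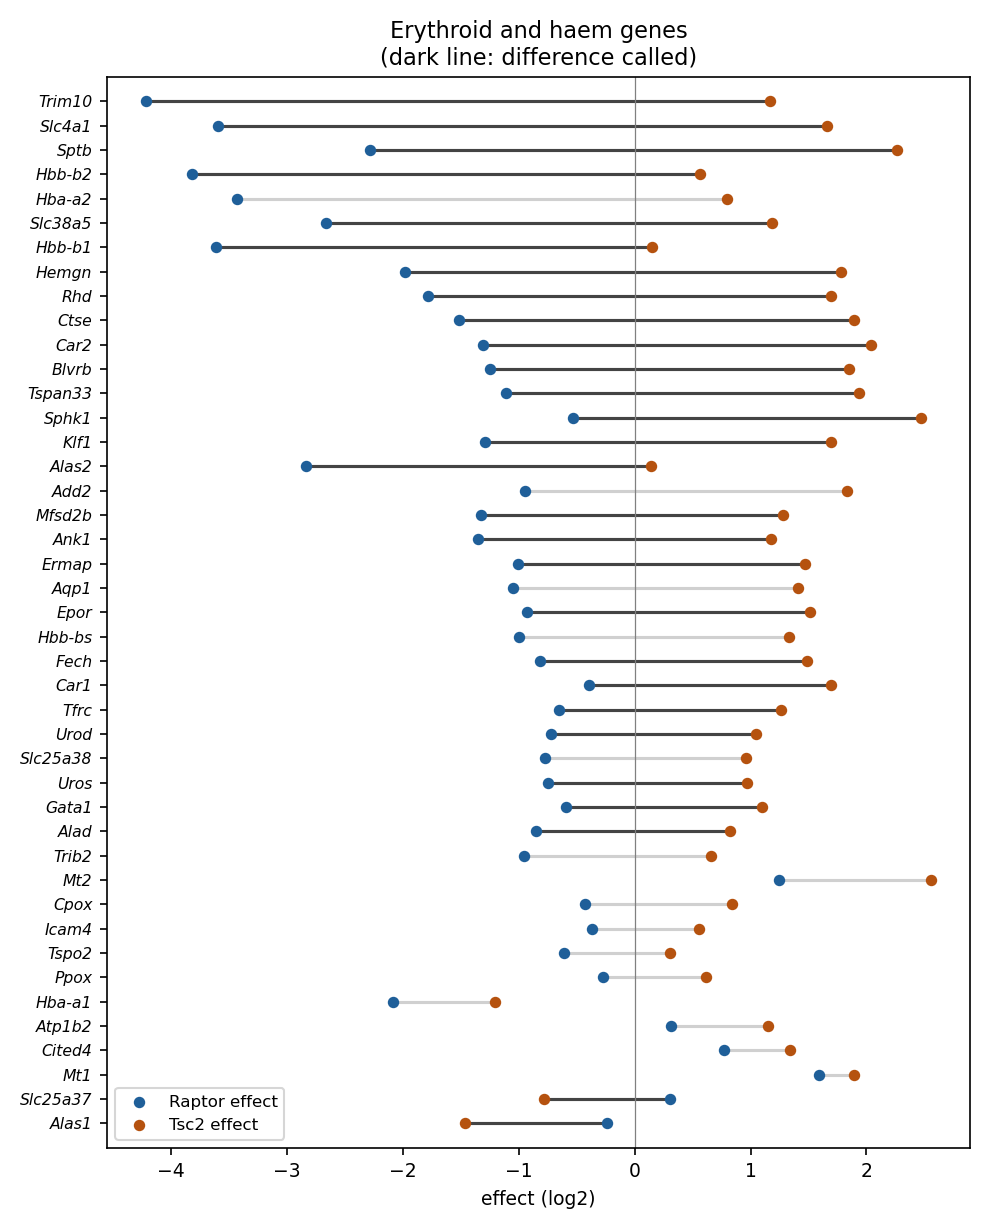
Raptor and Tsc2 effects (log2) of 43 of the 46 tested erythroid and haem genes, ordered by difference, with dark lines where the difference was called. For the 26 called lower members drawn, the Raptor effect lies below 0 and the Tsc2 effect above it, and Alas1 and Slc25a37 at the bottom show the reverse order.

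The GATA letters AGATAA, searched on both strands, were present in 5 of the 18 called lower erythroid members with a promoter entry (27.8%), against 11.4% of all promoters: Epor, Alas2, Rhd, Trim10 and Hemgn. GATA was not the only motif above its share of all promoters. The E-box letters CACGTG were present in 4 of the same 18 (22.2%), against 7.24% of all promoters. Alas2 and Rhd, the Rh blood group gene (difference -3.47 ± 0.56), are shown, with capitals on the match, which overlaps no other motif searched.
Alas2, chrX:150547167-150547466, plus strand: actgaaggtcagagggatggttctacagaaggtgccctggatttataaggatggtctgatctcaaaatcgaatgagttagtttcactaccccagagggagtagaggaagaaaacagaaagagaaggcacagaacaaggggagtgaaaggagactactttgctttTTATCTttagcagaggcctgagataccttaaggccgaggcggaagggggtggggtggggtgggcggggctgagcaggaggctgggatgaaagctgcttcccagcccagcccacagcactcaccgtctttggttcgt
Rhd, chr4:134864286-134864585, plus strand: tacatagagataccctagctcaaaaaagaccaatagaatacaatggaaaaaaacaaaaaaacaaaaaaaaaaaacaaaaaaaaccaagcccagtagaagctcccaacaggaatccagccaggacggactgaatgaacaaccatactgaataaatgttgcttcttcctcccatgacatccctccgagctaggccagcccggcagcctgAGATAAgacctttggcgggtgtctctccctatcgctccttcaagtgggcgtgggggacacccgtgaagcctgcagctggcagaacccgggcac

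Iron handling had 7 of 18 genes lower (38.9%) and 1 higher. Beside Slc40a1 and Hmox1, Tfrc, the transferrin receptor, stood at 670.3, 711 and 723 (controls) and 449, 441 and 448 (knockouts) in the Raptor line and rose from 571, 1164 and 629 to 1376, 2482 and 1707 (difference -1.92 ± 0.34, limma adjusted p = 0.00501). Slc11a2, the iron importer DMT1, had a difference of -1.69 ± 0.33 (limma adjusted p = 0.00439). The ferritin chains Fth1 and Ftl1, named after their values were seen, rose in Tsc2 KO, with Tsc2 effects of 1.02 and 1.10, Raptor effects of -0.10 and 0.02 that were not called, and differences of -1.11 ± 0.21 and -1.07 ± 0.16. Over the whole list 12 point estimates were below 0 and 6 above, and the called higher member was the mitochondrial importer Slc25a37.

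Among stem and early progenitor genes 15 of 37 were higher (40.5%, against 5.99% of all genes) and 0 lower, with a median difference of 1.41. The median Raptor effect was 0.27 and the median Tsc2 effect -1.47, and 19 members fell in Tsc2 KO while 3 rose in Raptor KO. Meis1, a homeobox factor of stem cells, stood at 72.9, 131 and 109 (controls) and 156, 138 and 176 (knockouts) in the Raptor line and fell from 87.6, 101 and 95.9 to 29.8, 23.4 and 35.6 (difference 2.28 ± 0.34, limma adjusted p = 6.9e-04). Cd27, a TNF receptor family member of early progenitors, stood at 231, 174 and 171 (controls) and 309, 272 and 298 (knockouts) and fell from 266, 168 and 204 to 65.6, 25.4 and 37.8 (difference 2.98 ± 0.37, limma adjusted p = 2.7e-04). Hoxa9, another homeobox factor, had a difference of 2.31 ± 0.49 (limma adjusted p = 0.00667). Flt3, the FLT3 ligand receptor (CD135), was called in both lines, from 95.2, 45.2 and 56.8 to 172, 128 and 146 and from 78.9, 72.8 and 52.7 to 34.5, 39.9 and 20.7 (difference 2.33 ± 0.42, limma adjusted p = 0.00262), although the sort was set to leave out CD135+ cells. Summed markers of stem and lymphoid-primed cells lay at 81.7 to 130 in Raptor fl/fl, 164 to 219 in Raptor KO, 79.0 to 97.3 in Tsc2 fl/fl and 32.6 to 55.0 in Tsc2 KO. Flt3 is 1 of these 4 markers and the largest in each library, so the sum largely repeats it. Of the others, Il7r and Mecom overlapped between knockout and control in both lines. Ly6a overlapped in the Raptor line and fell without overlap in the Tsc2 line. The part of such cells in the result was not tested. The count was 9 without Raptor KO replicate 2 or without the trend.

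Cytokine receptors and their feedback genes were higher in 14 of 39 (35.9%) and lower in 1, Epor, with a median difference of 1.31. Here the Raptor side took part, with 7 members that rose in Raptor KO and 11 that fell in Tsc2 KO. Socs2, a target and inhibitor of STAT signalling, stood at 3.61, 7.01 and 4.06 (controls) and 18.4, 35.7 and 27.2 (knockouts) in the Raptor line and fell from 18.2, 4.23 and 5.64 to 0, 2.75 and 0 (difference 4.74 ± 0.91, limma adjusted p = 0.00369). Bcl2, the survival factor counted in this list, stood at 115, 103 and 136 (controls) and 187, 196 and 226 (knockouts) and fell from 152, 88 and 147 to 68.9, 23.4 and 34.8 (difference 2.46 ± 0.43, limma adjusted p = 0.0025). Csf3r, the G-CSF receptor, and Cish, another feedback inhibitor, were named after their values were seen. Csf3r fell in Tsc2 KO (-2.02) and Cish rose in Raptor KO (2.13), with differences of 2.69 ± 0.62 and 2.80 ± 0.57. The count was 7 to 9 without Raptor fl/fl replicates 1 or 2, Raptor KO replicate 3, Tsc2 fl/fl replicate 1, or Tsc2 KO replicates 2 or 3, and 7 in the fit without the trend.

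Immediate early and feedback genes of the ERK pathway were higher in 10 of 40 (25%) and lower in 2, with 9 that rose in Raptor KO and 11 that fell in Tsc2 KO. Rps6ka3, the gene of RSK2, a kinase downstream of ERK, rose from 209, 107 and 148 to 393, 329 and 409 and fell from 185, 168 and 167 to 115, 87.3 and 68.1 (difference 2.29 ± 0.31, limma adjusted p = 4.7e-04). Dusp2, a phosphatase that shuts off ERK, stood at 35.4, 66.9 and 85.2 (controls) and 70.7, 76.6 and 86.4 (knockouts) in the Raptor line and fell from 339.9, 247 and 251 to 59.7, 63.3 and 42.2 (difference 2.73 ± 0.39, limma adjusted p = 5.5e-04). Its controls also differed between the lines, since the Tsc2 fl/fl values lay above all Raptor line libraries. The immediate early genes Egr1 and Junb, named after their values were seen, rose in Raptor KO (1.10 and 0.96) with Tsc2 effects of -0.03 and 0.02, and had differences of 1.13 ± 0.23 and 0.94 ± 0.21. The count was 19 without Tsc2 KO replicate 1 and 5 in the fit without the trend.

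Lineage transcription factors of myeloid cells were higher in 15 of 52 (28.8%) and lower in 2, which were Gfi1b and Gata1, factors of the erythroid and megakaryocyte lineage. Gfi1, a repressor needed for granulocytes, stood at 36.1, 17.9 and 33.3 (controls) and 54.5, 65.4 and 59.2 (knockouts) in the Raptor line and fell from 38.1, 22 and 42.3 to 13.3, 10.3 and 5.93 (difference 2.78 ± 0.54, limma adjusted p = 0.00386). Gfi1b went the opposite way, at -2.43 ± 0.62, a call that 12 of 24 settings lost (limma adjusted p of up to 0.0803), among them the omission of each library other than Tsc2 fl/fl replicate 2 and Tsc2 KO replicate 1. Spi1, the factor PU.1, and Runx1, named after their values were seen, fell in Tsc2 KO (-1.57 and -0.81) and had differences of 1.53 ± 0.32 and 0.98 ± 0.28. The count was 23 without Tsc2 KO replicate 1 and 6 in the fit without the trend.

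Primary granule genes, the products that mark GMPs, had a median difference of 1.43, with 23 of 24 point estimates above 0, but 6 were called higher (25%) and 0 lower. Their median effects were -0.09 for Raptor and -1.53 for Tsc2, and 12 members fell in Tsc2 KO. Mpo, myeloperoxidase, named after its values were seen, stood at 48895, 44423 and 46435 (controls) and 37794, 38005 and 37197 (knockouts) in the Raptor line and at 48343, 23511 and 52221 (controls) and 24793, 4819.6 and 7520.0 (knockouts) in the Tsc2 line. Its difference of 1.71 ± 0.79 was not called (limma adjusted p = 0.206), and Tsc2 fl/fl replicate 2 lay below Tsc2 KO replicate 1. Trem3, a myeloid receptor, was called at 3.02 ± 0.79 (limma adjusted p = 0.0326), but not without any 1 of Raptor fl/fl or Raptor KO replicates 1 to 3, Tsc2 fl/fl replicates 1 or 3, or Tsc2 KO replicate 3, nor in the fit without the trend (limma adjusted p of up to 0.0856). The count was 18 without Tsc2 KO replicate 1, 2 in the fit without the trend, and 3 without any 1 of the Raptor line libraries, Tsc2 fl/fl replicates 1 or 3, or Tsc2 KO replicate 3.

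Secondary granule and neutrophil maturation genes split, with 3 higher and 5 lower of 33. Ltf, lactoferrin, fell from 53.4, 104 and 178 to 13.4, 11.9 and 15 and stood at 99.7, 57.5 and 194 (controls) and 419.6, 221 and 130.4 (knockouts) in the Tsc2 line, with overlap in the latter (difference -3.95 ± 0.74, limma adjusted p = 0.00752). Camp, cathelicidin, had a difference of -4.17 ± 0.88 (limma adjusted p = 0.012), and both lost their call with voom weights (limma adjusted p = 0.0743 for Ltf and 0.089 for Camp). The lower count was 2 without Raptor fl/fl replicate 3 and with voom weights. The higher count was 1 without the trend, or with Tsc2 KO replicate 3 or Tsc2 fl/fl replicate 1 left out, 6 without Tsc2 fl/fl replicate 2 and 7 without Tsc2 KO replicate 1.

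Monocyte and macrophage genes were lower in 8 of 45 (17.8%) and higher in 1, with 26 point estimates below 0 and 19 above. C1qb, a complement chain made by macrophages, stood at 23.1, 17.1 and 21.1 (controls) and 23.3, 68.4 and 48.9 (knockouts) in the Raptor line and rose from 3.47, 0 and 0.941 to 48.4, 72.9 and 99.3 (difference -4.08 ± 0.73, limma adjusted p = 0.00243). Mrc1, the mannose receptor, rose from 0, 0 and 0.941 to 11.3, 5.5 and 8.15 with a difference of -4.76 ± 0.92 (limma adjusted p = 0.00384). Macrophage markers summed to 94.1 to 116 in Raptor fl/fl, 89.1 to 135 in Raptor KO, 19.5 to 49.8 in Tsc2 fl/fl and 106 to 190 in Tsc2 KO, so the Tsc2 controls were the low group, and the part of macrophages was not tested. Of these 5 markers, Emr1, Cd163 and Vcam1 overlapped between knockout and control in the Tsc2 line. C1qb itself was the largest of them in each Tsc2 KO library, and C1qa also rose there without overlap. The monocyte markers Csf1r, Ly6c2 and Ccr2 did not share this rise in Tsc2 KO. They summed to 334 to 448 in Raptor fl/fl and 386 to 459 in Raptor KO. That sum hides opposite moves in the Raptor line. Ly6c2 fell from 168, 150 and 179 to 60.1, 58.0 and 70.5. Ccr2 rose from 67.1, 67.7 and 90.9 to 197, 173 and 242, and Csf1r overlapped. In the Tsc2 line the monocyte markers summed to 155 to 706 (controls) and 90.1 to 444 (knockouts). The count was 5 in the fit without the trend.

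B lymphoid genes were lower in both lines, with median effects of -2.17 and -2.55 and 19 and 23 of 35 members called lower in Raptor KO and Tsc2 KO, but their median difference was 0.07, with 3 higher and 1 lower. The lower one was Cd24a, also expressed on erythroid precursors, which fell from 1765, 1662 and 1857 to 441, 346 and 386 and stood at 1225, 2656 and 1556 (controls) and 2143, 3632 and 2764 (knockouts) in the Tsc2 line (difference -2.87 ± 0.35, limma adjusted p = 9.0e-04). The B lymphoid count of higher genes was 5 without Tsc2 KO replicate 1 and 0 in the fit without the trend. Summed markers of basophils and mast cells (Mcpt8, Prss34, Fcer1a and Cpa3) lay at 2974 to 6513 and 8409 to 10386 in Raptor fl/fl and Raptor KO, and 988 to 2200 and 2790 to 7496 in Tsc2 fl/fl and Tsc2 KO, with no overlap in either line. The wider list of basophil, mast cell and eosinophil genes showed less: its 35 tested members had median effects of 0.35 and 0.21, with 1 called higher in Raptor KO and 5 higher and 2 lower in Tsc2 KO. For the difference 3 members were higher (8.57%) and 2 lower (5.71%), near the shares of all genes. Gpnmb, a lysosomal glycoprotein named after its values were seen, rose from 0, 1.56 and 4.06 to 164, 580.5 and 408 and from 0, 1.69 and 0 to 259, 535 and 426, and its difference of -0.95 ± 0.84 was not called (limma adjusted p = 0.498). Megakaryocyte and platelet genes were higher in 5 of 30 and lower in 0, with median effects of -0.45 and -1.16. On their own, 4 members fell and 1 rose in Raptor KO, and 15 fell in Tsc2 KO. Summed megakaryocyte markers lay at 851 to 1186 and 383 to 428 in Raptor fl/fl and Raptor KO. In Tsc2 fl/fl and Tsc2 KO they lay at 354 to 679 and 158 to 174. Unlike these sums, the list member Selp, P-selectin, rose in Raptor KO from 7.94, 21 and 9.74 to 114, 108 and 140.0 and lay at 12.1, 6.77 and 21.6 (controls) and 10.6, 2.06 and 5.19 (knockouts) in the Tsc2 line (difference 4.37 ± 0.73, limma adjusted p = 0.00135). The megakaryocyte count was 3 without Raptor fl/fl replicate 1 or Raptor KO replicates 2 or 3, 10 without Tsc2 KO replicate 1, and 2 in the fit without the trend.

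Cytosolic ribosomal proteins were higher in 8 of 78 (10.3%) and lower in 0, by small amounts, with a median difference of 0.19. Rpl4 rose from 12549.7, 12436 and 12233 to 16908, 15769 and 15958 in the Raptor line and stood at 12404, 10075 and 11154 (controls) and 10464, 9949 and 9778 (knockouts) in the Tsc2 line. Its difference of 0.54 ± 0.12 (limma adjusted p = 0.0078) was not called under quantile normalization or in the fit without the trend (limma adjusted p of up to 0.266). The direction of single members depended on the scaling: Rpsa went from 0.51 to -0.16 under quantile normalization, and 1 other member was then called lower. The count was 4 or 5 without Raptor fl/fl replicates 2 or 3, Raptor KO replicates 1 or 3, Tsc2 fl/fl replicates 1 or 3, or Tsc2 KO replicates 2 or 3, 16 without Tsc2 fl/fl replicate 2, and 0 in the fit without the trend. Ribosome biogenesis genes had 4 of 44 higher, among them Myc and Ppan (0.95 ± 0.24), and 0 lower. That share of 9.09% compares with 5.99% of all genes. The median difference was 0.02, and the count was 1 in the fit without the trend.

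Lysosomal hydrolases had 5 higher and 6 lower of 46. Ctsd and Ctsl, cathepsins named after their values were seen, rose in Tsc2 KO (1.09 and 1.98), with Raptor effects of 0.20 and 0.74 that were not called, and differences of -0.89 ± 0.15 and -1.25 ± 0.30. In the other direction Ctsf, cathepsin F, rose from 18, 25.7 and 21.9 to 63, 89.2 and 76.1 and fell from 13, 11 and 26.3 to 7.96, 6.88 and 3.7 (difference 3.02 ± 0.57, limma adjusted p = 0.00343). The higher and lower counts were each 3 in the fit without the trend, and the higher count was 3 without Raptor KO replicate 2 or Tsc2 KO replicate 2, 8 without Tsc2 fl/fl replicate 2 and 12 without Tsc2 KO replicate 1. In the autophagy list, 4 of 34 were lower and 0 higher. Optn, an autophagy receptor, stood at 68.5, 68.5 and 58.4 (controls) and 24.8, 41.6 and 32.9 (knockouts) in the Raptor line and rose from 32.1, 109 and 92.2 to 139, 216 and 241 (difference -2.46 ± 0.51, limma adjusted p = 0.00677). Atg5, needed to form autophagosomes, had a difference of -1.02 ± 0.23 (limma adjusted p = 0.00786). The autophagy count was 2 without the trend, under quantile normalization, and without Raptor fl/fl replicate 3, Raptor KO replicate 2 or Tsc2 KO replicates 2 or 3.

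Rapamycin, an inhibitor of mTORC1, was applied to a separate set of libraries: DR-ER-Hoxb8 cells, an immortalized myeloid progenitor line, differentiated with rapamycin or with its solvent DMSO, 2 libraries each. They share no library with the GMP contrast and did not enter the tests above, but the comparison was chosen after the GMP values were seen. Of 11334 genes tested in both systems, limma called 631 higher (5.57%) and 724 lower (6.39%) with rapamycin, and 49.1% lay above DMSO and 50.9% below. Of the 62 genes that fell in Raptor KO and rose in Tsc2 KO, 49 were tested there, 37 lay below DMSO (75.5%), and 19 were called lower and 0 higher. Of the 19 that moved the other way, 13 were tested, 8 lay above DMSO (61.5%, not far from the share of all genes), and 1 was called in each direction. Mitosis genes lay below DMSO in 40 of 40 cases, with 29 called lower, and sterol genes in 23 of 27, with 6 called lower and 1 higher. Primary granule genes lay above DMSO in 20 of 24, with 15 called higher and 3 lower. For 18 of the 39 lists the median rapamycin effect and the median GMP difference had opposite signs. Among them, 16 of 22 erythroid genes, 27 of 36 amino acid and tRNA genes, 48 of 76 mitochondrial ribosomal protein genes and 18 of 26 nucleotide synthesis genes lay above DMSO, although their median GMP differences were negative. Cytokine receptors and feedback genes, with a median GMP difference of 1.31, lay below DMSO in 25 of 34 cases, with 8 called lower and 3 higher. All 78 cytosolic ribosomal protein genes lay above DMSO, with 75 called higher, against 8 called higher in the GMP difference. These counts describe 2 libraries against 2, with a variance pooled over the 6 libraries of this cell line.

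**Figure D5:**
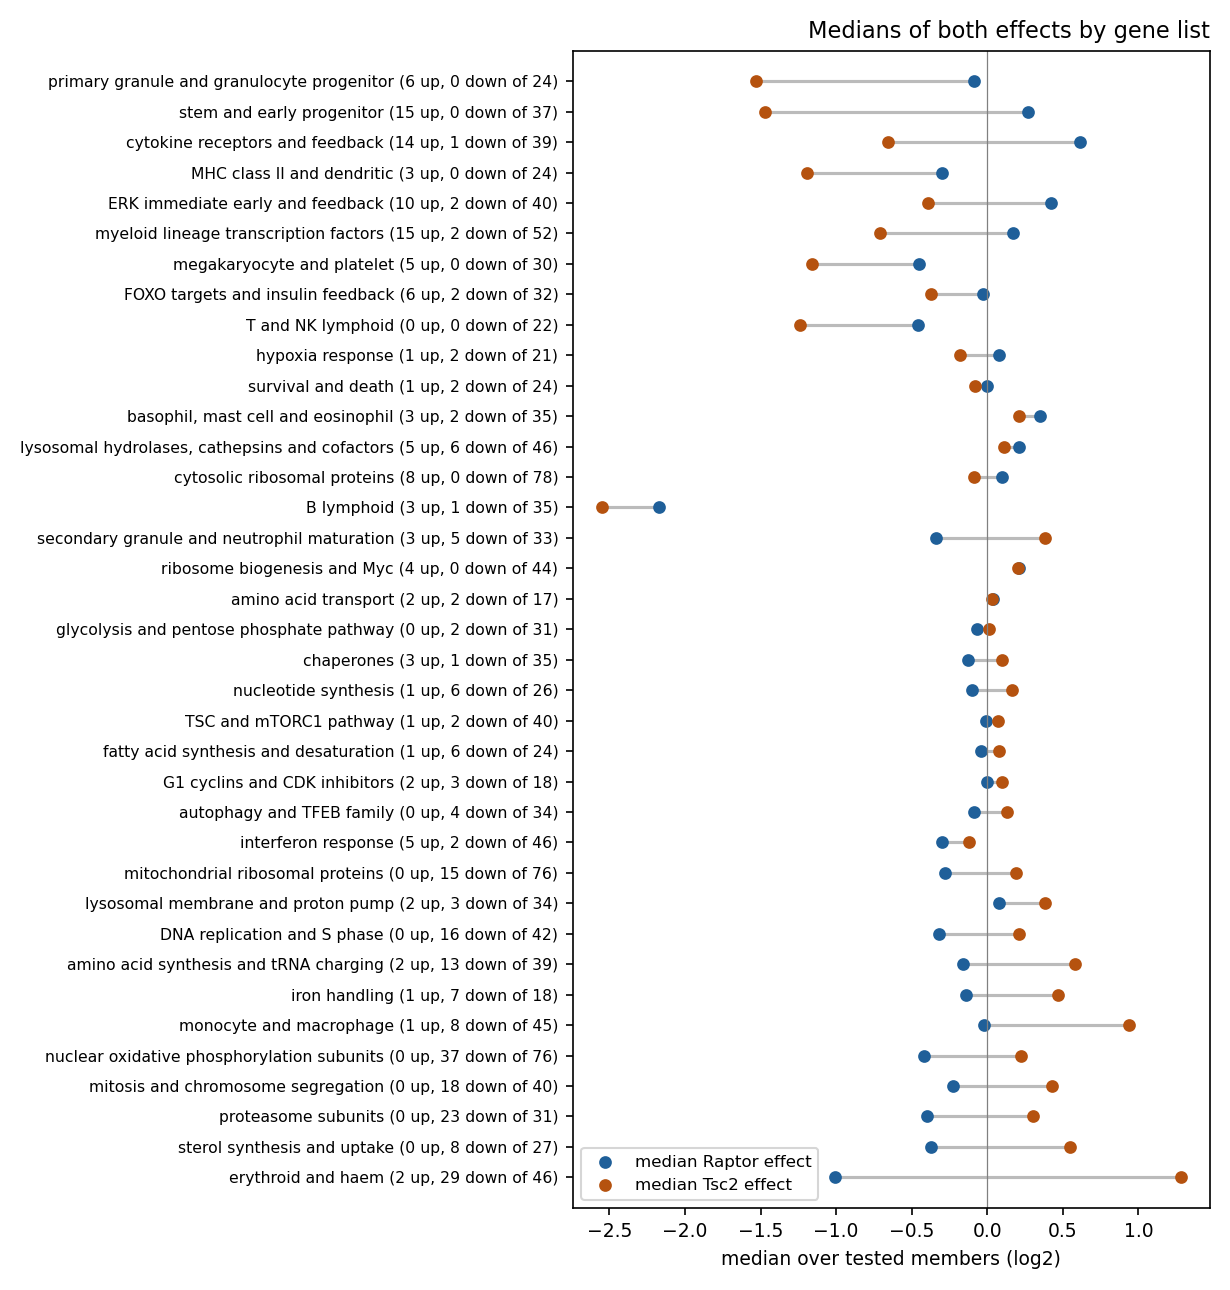
Median Raptor effect and median Tsc2 effect (log2) of each list with at least 15 tested members, ordered by median difference, with the numbers of members called higher (up) and lower (down) after each name. The longest lines belong to erythroid and haem genes, where Raptor lies left of Tsc2, and to primary granule and stem genes, where it lies right, while B lymphoid genes are low in both lines.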

How the data were processed

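The authors deposited 1 gene table whose values are signal units, a gene's fragment number over the size factor of its library. Per the submitters' processing notes, BWA, TopHat2 2.0.10, Cufflinks 2.2.1 and Cuffnorm were used, with no genome build named in them. In each library 98.98% to 99.07% of values equalled a whole number of fragments (tolerance 0.01), and 233 genes had shared fragments. Values were taken as log2(value + 1). Genes with a value of at least 1 in at least 3 of 12 libraries were fitted with limma 3.58.1 under R 4.3.3 (4 group means, variance trend, robust), with Benjamini-Hochberg adjustment within each of 3 comparisons and a threshold of 0.05. The script was tested on simulated data. The contrast, the 39 gene lists and the tests were chosen with earlier results of these data known. Named genes are Rptor and Tsc2; the 12 highest and 12 lowest called differences with a group mean of at least 50 and no overlap in at least 1 line; up to 8 per direction called in both lines with opposite signs; up to 4 per direction called in both with the same sign; up to 4 called members per list; and up to 2 of the most abundant members of lists with fewer than 2 called. Other genes are marked in the text as chosen after their values were seen, and were not recomputed under the alternatives. A few genes that the rule or the lists hold are not reported here by name. Motifs were searched in RefSeq promoters (GRCm38.p6). Alternatives covered scaling, filter, pseudocount, variance model, replicate block, all 18 libraries, and leaving out each library.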

Additional observations from a re-analysis of the deposited data

Results flagged for a closer look

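These results stand out because the effect of the same kind of contrast, knockout against its own control, differed between the 2 lines by limma's test of the difference itself. That test called 1646 genes. Among those called in both lines with opposite signs, the differences on the log2(value + 1) scale were 5.16 for Ifitm1, 4.66 for Serpina3g, 4.48 for Lag3, 3.83 for Socs3, 3.63 for Maged1, 3.55 for Firre, 3.43 for Il4ra and 3.02 for Ctsf. They were -3.9 for Pdzk1ip1, -3.96 for Hpn, -4.77 for Sh2d4a, -5.25 for Slc4a1, -5.27 for Slc46a3, -5.75 for Crip2 and -7.23 for Scd1. Genes of this kind were chosen from the same contrast, so their size describes these libraries.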

How the results depend on the processing

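Of the 1646 called differences, 1645 kept their sign in each setting in which they were tested, and the exception arose under quantile normalization; Rpsa went from 0.51 to -0.16 there. Without the variance trend and robust estimation there were 714 calls (371 higher, 343 lower), 20 genes called in both lines with opposite signs, 215 Raptor calls and 929 Tsc2 calls. Leaving out 1 library gave 897 to 2519 calls (432 to 1401 higher, 456 to 1118 lower), 27 to 215 with opposite signs, 146 to 834 Raptor calls and 601 to 2498 Tsc2 calls. All 18 libraries gave 143 with opposite signs and 821 Raptor calls, and leaving out both libraries with Y-linked transcripts gave 146 with opposite signs. Deviations of same-numbered libraries from their group means correlated at 0.026, 0.047 and 0.01 in the Raptor line and at 0.217, 0.245 and -0.032 in the Tsc2 line for replicates 1 to 3. In the Raptor line every library except Raptor fl/fl replicate 3 correlated best with its own number, at these low values. That library correlated best with Raptor KO replicate 1, at 0.013. In the Tsc2 line 2 of 3 pairs correlated best with their own number. The Tsc2 pair numbered 2 also shares the Y-linked transcripts. The labels give no source for the numbers, and not every pair passed 0.1, so the numbers were not taken as pairs. With the replicate number as a block there were 1855 calls and 131 genes with opposite signs, and with a replicate block within line 2482 calls, 1261 higher, 310 with opposite signs, 1142 Raptor calls and 2499 Tsc2 calls. The other settings (quantile, common total, filters, pseudocounts, voom) gave between 1382 and 1708 calls. The cause of these shifts was not tested. The planned edgeR and DESeq2 fits were not run, since about 1% of values did not come out as whole fragments. With 3 libraries per group, precision is limited: the median SE of a difference was 0.449.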
